A study of Schizosaccharomyces pombe
Saccharomyces cerevisiae with 24 samples.

Results

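The transcripts described here are those of the mitochondrial genome of Saccharomyces cerevisiae, taken as all rows of both deposited gene tables whose identifier starts with the letter Q. There were 31 such rows among 7127. Diploid W303 cells were grown in YEP with raffinose and given galactose, and at 60 or 20 min a culture was split into a flask that received 4-thiouracil (4sU, which marks RNA made while it is present) for 6 min and a flask that did not. RNA of each flask was extracted after mixing its cells with 4sU-labeled Schizosaccharomyces pombe cells as a spike-in. Biotinylated RNA was separated on streptavidin beads into a labeled fraction (bound, enriched for RNA made during the 6 min) and an unlabeled fraction (flow-through). The third fraction, total RNA, is RNA not separated on the beads. With 2 biological replicates of each of 12 conditions there were 24 libraries, made after depletion of ribosomal RNA, so each fraction has 4 libraries with 4sU and 4 without. The cells of all conditions had been moved to galactose, and no sample from before galactose was analysed here.

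Mitochondria of budding yeast transcribe their own genome in the matrix with a dedicated polymerase of the bacteriophage type rather than with RNA polymerase II, which transcribes the nuclear protein-coding genes. The mitochondrial genome carries genes for core subunits of the respiratory chain and of the ATP synthase, for the RNAs of the mitochondrial ribosome, for transfer RNAs and for proteins encoded within introns. Its products are needed for growth on carbon sources that must be respired, and respiratory genes are known to be repressed by glucose. The tables pair no gene name with the Q identifiers, so members are given by identifier only and no role is assigned to any of them.

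Of the 31 members, 11 were listed at 0 in all 24 libraries: Q0050, Q0055, Q0060, Q0065, Q0070, Q0075, Q0110, Q0115, Q0120, Q0160 and Q0297. A count of 0 among all 175315791 counts allows up to 0.0171 CPM, counts scaled to a library of 1000000. Rows at 0 everywhere made up 35.5% of the members and 2.55% of all 7127 genes. How reads lying over more than 1 gene were treated is not given in the sources used here, so counts of overlapping genes are uncertain and the 11 rows cannot be taken as RNA that was not made. The other 20 members had counts, and all 20 passed the filter, which removed genes listed at 0 in over 50% of libraries. The mean count over the 24 libraries was at least 10 for 16 members, called well counted below, and lower for Q0143, Q0144, Q0017 and Q0092.

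Member counts were uneven. Q0158 had the highest count of any gene in all 24 libraries, and Q0020 ranked 2 or 3 in every library but the labeled ones with 4sU, where it ranked between 5 and 11. Q0158 averaged 64.1 ± 1.34% of member counts in labeled RNA with 4sU and 72.0 ± 1.35% in total RNA with 4sU (SD, n = 4 each). Q0020 averaged 23.8 ± 0.976% and 22.3 ± 1.22% in the same fractions. Q0045, Q0275, Q0130 and Q0250 followed, each between 2.29% and 2.59% of member counts in labeled RNA with 4sU and between 0.664% and 2.18% in total RNA with 4sU. Gene lengths are not in the tables, so these are counts of reads and do not rank the genes by molecules.

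Labeled libraries with 4sU held 6600472 to 38373886 S. cerevisiae counts, against 1073888 to 4751222 in labeled libraries without 4sU, the shallowest kind. Unlabeled libraries held 2910909 to 10320711 counts and total libraries 4380685 to 25744071. One library stood apart and touches many values below: in the labeled library without 4sU of 20 min, replicate 1, the members took 53.2% of the counts, against 21.0% to 21.7% in the other 3 of that kind. The counts of members called in the comparisons that use it, and the values of the 6 members with the highest mean count, are also given without it. Rows of the RDN, ETS and ITS form, which are named for ribosomal RNA and its spacers, took 0.679% to 4.13% of a library.

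The members' share of the library was lowest in labeled RNA with 4sU. They took 4.86% and 3.86% of counts at 60 min and 3.21% and 4.28% at 20 min in labeled RNA with 4sU, replicate 1 before replicate 2 here and below. In labeled RNA without 4sU the shares were 21.0% and 21.3% at 60 min and 53.2% and 21.7% at 20 min. Each labeled library with 4sU was thus below each labeled library without 4sU. The mean was 4.05 ± 0.697% with 4sU and 29.3 ± 15.9% without (SD, n = 4 each), or 21.3 ± 0.394% without 4sU when the 20 min replicate 1 library was left out (n = 3).

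In unlabeled RNA with 4sU the members took 38.9% and 49.8% of counts at 60 min and 38.2% and 47.1% at 20 min. In total RNA with 4sU they took 38.0% and 36.7% at 60 min and 38.8% and 43.4% at 20 min. The unlabeled and total ranges overlap, and replicate 2 was above replicate 1 at both times in unlabeled RNA. Unlabeled RNA without 4sU gave 34.7 ± 4.19% and total RNA without 4sU 40.7 ± 3.05% (SD, n = 4 each). Binomial 95% Wilson intervals of a single library's share were at most 0.155 percentage points wide and cover counting error only. The 18 members with counts other than Q0158 and Q0020 took 0.492 ± 0.0887% of labeled RNA with 4sU, 2.49 ± 0.264% of unlabeled RNA with 4sU and 2.22 ± 0.153% of total RNA with 4sU, so they stood in the same order.

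**Figure D1:**
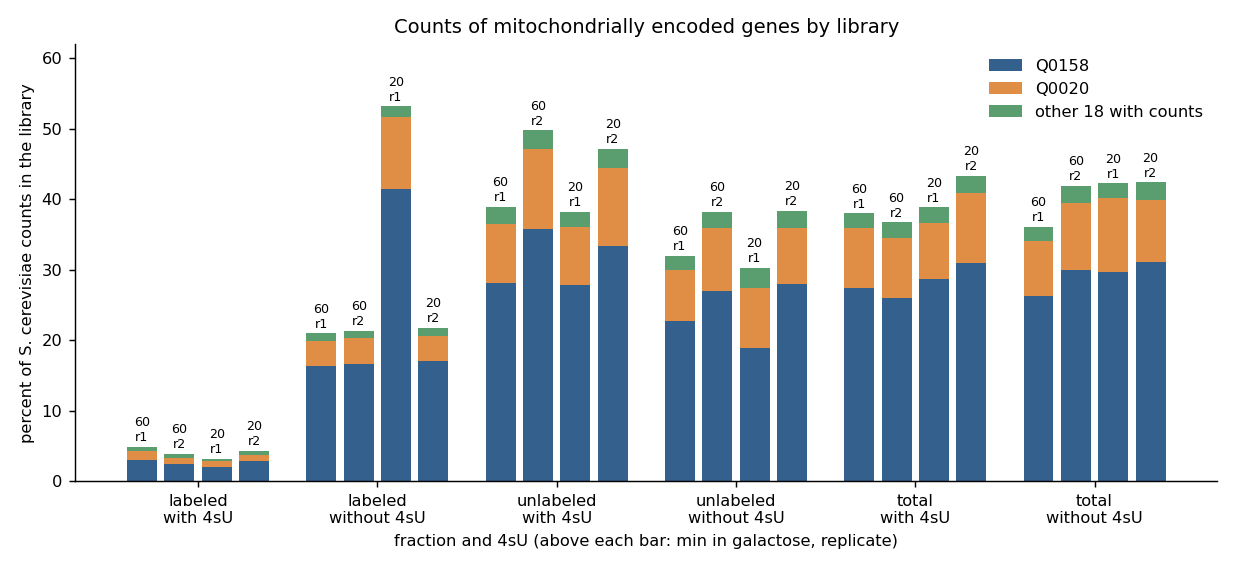
Percent of the S. cerevisiae counts of each library taken by members, stacked as Q0158, Q0020 and the other 18 with counts, with fraction and 4sU on the x axis and min in galactose and replicate above each bar. The 4 labeled libraries with 4sU sit between 3.21% and 4.86%, and the labeled library without 4sU of 20 min, replicate 1, is at 53.2%.

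Labeled RNA with 4sU was compared with total RNA with 4sU on the share of the library, since S. pombe RNA is itself labeled and pulled down and its reads do not compare fractions. Of the 20 members tested, 12 had a lower share in labeled RNA and 3 a higher share (edgeR quasi-likelihood test, Benjamini-Hochberg adjusted p under 0.05, 4 libraries each). Among all 6069 genes tested 2.17% were lower and 88.6% higher. The median log2 fold change of the members was -1.13, against 1.46 for all genes, and 19 of 20 members lay below the all-gene median.

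Q0158 took 3.07% and 2.44% of counts at 60 min and 2.05% and 2.82% at 20 min in labeled RNA, against 27.4% and 26.0% at 60 min and 28.7% and 30.9% at 20 min in total RNA. The 4 labeled values are all far below the 4 total values. The fitted log2 fold change of Q0158 was -3.44 ± 0.29 (SE; edgeR adjusted p = 4.53e-07), a share 10.9-fold lower, the 4th lowest of the 6069 genes and 4.90 below the all-gene median.

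Q0020 had 11982 and 9192 CPM at 60 min and 7780 and 9594 at 20 min in labeled RNA, against 85296 and 84591 at 60 min and 79645 and 100261 at 20 min in total RNA. Its sets of values do not overlap either, and its log2 fold change was -3.19 ± 0.24 (edgeR adjusted p = 1.80e-07). Q0045 had 1123 and 1033 CPM at 60 min and 942 and 1005 at 20 min in labeled RNA, against 7383 and 8317 at 60 min and 8704 and 9817 at 20 min in total RNA. Its log2 fold change was -3.06 ± 0.15 (edgeR adjusted p = 2.93e-08), and these 3 members, the highest by mean count, ranked among the 14 lowest of all genes.

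The next 3 members by mean count were lower by less. Q0275 had 1267, 1050, 874 and 992 CPM in labeled RNA, against 3803, 3865, 4215 and 3939 in total RNA (60 min, then 20 min), and its log2 fold change was -1.93 ± 0.14 (edgeR adjusted p = 1.49e-07). Q0130 had 1324, 853, 739 and 1041 CPM in labeled RNA, against 2840, 2582, 2434 and 2501 in total RNA, and a log2 fold change of -1.39 ± 0.16. Q0250 had 867, 1182, 636 and 991 CPM in labeled RNA, against 2280, 3107, 1831 and 3306 in total RNA, and a log2 fold change of -1.53 ± 0.22. For each of these 3 members the labeled value was the lower one in 4 of 4 pairs of the same time and replicate, and the sets do not overlap.

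The size of the difference varied among members. The 95% intervals of the log2 fold change of Q0158 (-4.02 to -2.87) and of Q0275 (-2.20 to -1.66) do not overlap. Q0105 (-2.94), Q0080 (-2.93), Q0085 (-2.38), Q0285 (-1.96), Q0140 (-0.86) and Q0255 (-0.81) made up the rest of the 12 members with a lower share. Q0182 (0.66), Q0010 (0.51), Q0143 (0.81), Q0144 (-0.09) and Q0092 (1.16) passed no threshold.

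The 3 members with a higher share had few counts. Q0142 had 7.58 and 4.60 CPM at 60 min and 2.79 and 5.79 at 20 min in labeled RNA, against 2.33 and 3.09 at 60 min and 1.70 and 2.93 at 20 min in total RNA. The ranges overlap, the labeled value was higher in 4 of 4 pairs, and the log2 fold change of 1.05 ± 0.34 (edgeR adjusted p = 0.0114) was 0.41 below the all-gene median. Without the total RNA library of 60 min, replicate 1, it was 0.89 and passed no threshold. Q0032 (0.73) and Q0017 (1.80) were the other members with a higher share.

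These higher calls depend on the scaling. The members themselves fill 39.2 ± 2.89% of total RNA with 4sU. With library totals without them 0 members were higher and 12 lower, against 67.3% and 6.62% of all genes, with an all-gene median of 0.80. With TMM factors, which set the all-gene median to 0.02, 0 members were higher and 14 lower, against 34.0% and 30.3% of all genes. Q0142 was then at -0.38. With S. pombe totals 9 were higher and 6 lower, against 98.3% and 0.61% of all genes. The members' median was then 0.50 and that of all genes 3.13. With the flask (time and replicate) as a block, 6 were higher and 12 lower, against 88.5% and 2.24% of all genes. Leaving out 1 library at a time gave 1 to 4 higher and 11 to 12 lower, against 86.4% to 88.0% and 1.71% to 2.27%. Under each of these settings the median of the members lay below that of all genes.

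**Figure D2:**
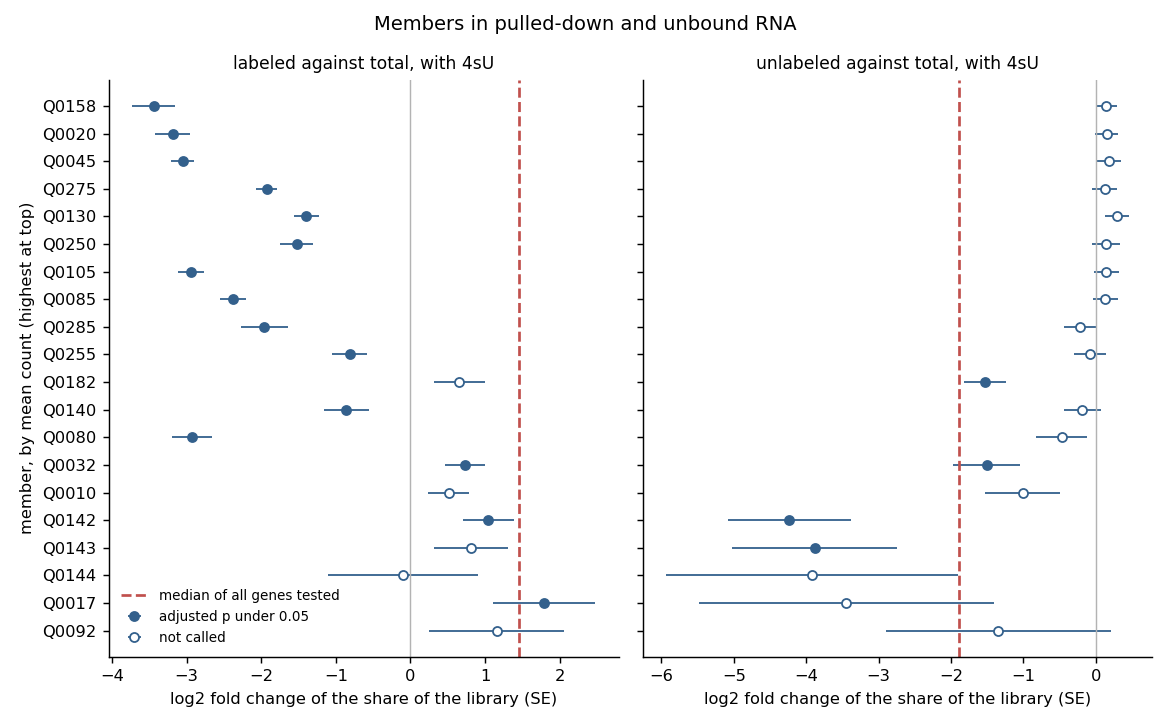
Log2 fold change of the share of the library with its SE for the 20 members tested, ordered by mean count from top to bottom, for labeled against total RNA (left) and unlabeled against total RNA (right), both with 4sU, with filled points where the adjusted p was under 0.05. In the left panel Q0158 at -3.44 is at the far left of the all-gene median of 1.46 (dashed), and in the right panel Q0158 at 0.15 is at the right of the all-gene median of -1.89. Q0017 and Q0144 had no count in unlabeled RNA with 4sU, so their points in the right panel depend on the fit and are no bounds.

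The 22 tested identifiers of transfer RNA form that carry the letter Q after the anticodon gave other calls than the members. The labeled share of 3 was higher and of 0 lower, against 88.6% and 2.17% of all genes. Their median log2 fold change was 0.67, and all 22 values were above 0, of which 19 passed no threshold. Of all 6069 genes 5785 were above 0. The highest of the 22 values was 1.29, so like most members they lay below the all-gene median of 1.46. The 50 tested transfer RNA identifiers with other letters had a median of 0.30, with 3 higher and 4 lower. Transfer RNA identifiers with the letter Q took 0.0141 ± 0.00955% of labeled RNA with 4sU (SD, n = 4).

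Unlabeled RNA with 4sU was compared with total RNA with 4sU on the same scale, which asks whether the flow-through of the beads holds a like share of members. Of the 20 members 0 were higher and 4 lower, against 1.58% and 73.9% of all genes (edgeR quasi-likelihood test, Benjamini-Hochberg). The members' median log2 fold change was -0.20 and that of all genes -1.89, and 16 of 20 members lay above the all-gene median.

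Q0158 took 28.1% and 35.8% of counts at 60 min and 27.9% and 33.4% at 20 min in unlabeled RNA, against 27.4% and 26.0% at 60 min and 28.7% and 30.9% at 20 min in total RNA. These ranges overlap, and the log2 fold change of 0.15 ± 0.15 had a 95% interval of -0.14 to 0.44 (edgeR adjusted p = 0.361). Q0020 (0.15), Q0045 (0.18), Q0275 (0.13), Q0130 (0.30) and Q0250 (0.14) had values close to that of Q0158, and none passed the threshold. Q0130 was the highest of the well counted members, and without the unlabeled library of 20 min, replicate 1, it was called higher at 0.36 (edgeR adjusted p = 0.0440).

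The lower calls fell on Q0142, Q0143, Q0182 and Q0032. Q0142, the lowest of the well counted members, had 0 and 1 counts at 60 min and 0 and 1 at 20 min in unlabeled RNA with 4sU, against 60 and 17 at 60 min and 10 and 14 at 20 min in total RNA. The 2 counts against 101 give a ratio of 0.0481 after scaling to library totals, with an exact 95% counting interval of 0.00575 to 0.178. That interval is on counts summed over libraries and leaves out the spread between them. In unlabeled RNA without 4sU the same member had 9 and 8 counts at 60 min and 35 and 11 at 20 min. Q0182 had 23.7, 28.8, 22.1 and 7.66 CPM in unlabeled RNA, against 101, 58.3, 43.4 and 36.0 in total RNA (60 min, then 20 min), with a log2 fold change of -1.53 ± 0.29 (edgeR adjusted p = 6.51e-06). Its highest unlabeled value was below its lowest total value.

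Here too the direction depends on the scaling. With TMM factors, under which the all-gene median was -0.25, 12 members were higher and 1 lower, against 27.1% and 32.7% of all genes. The members' median was then 1.51. S. pombe totals gave 0 higher and 8 lower, against 0.0659% and 83.9% of all genes. There the members' median was -0.85, against -2.51 for all genes. Under both the members' median stayed above that of all genes. The transfer RNA identifiers with the letter Q had a median of -1.96, with 16 of 22 lower, close to all genes with -1.89 and 73.9%.

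The labeled libraries without 4sU measure what the beads carry over from cells that were given no label. On the scale of counts per S. pombe reads, which compares libraries within a fraction, 16 of 20 members were higher with 4sU than without and 0 were lower, against 98.8% and 0.0% of all genes (edgeR quasi-likelihood test, Benjamini-Hochberg, 4 libraries each). The members' median log2 fold change was 3.57, against 5.51 for all genes, and 19 of 20 lay below the all-gene median.

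Q0158 had 269039 and 302373 normalized counts at 60 min and 315887 and 358496 at 20 min with 4sU, against 53575 and 36976 at 60 min and 1349800 and 45796 at 20 min without. The library without 4sU of 20 min, replicate 1, lies above all 4 libraries with 4sU and the other 3 lie far below them. The log2 fold change of Q0158 was 0.80 ± 1.14 (edgeR adjusted p = 0.496). Q0020 had 105085, 113993, 119819 and 121761 normalized counts with 4sU, against 11766, 8260, 332787 and 9639 without (60 min, then 20 min), with the same library above the rest, and its log2 fold change was 1.47 ± 1.20 (edgeR adjusted p = 0.244).

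Q0080 (1.33) and Q0105 (1.60) also passed no threshold. Q0045 (2.18), Q0275 (3.09), Q0130 (3.46) and Q0250 (3.10) were higher, each by less than the all-gene median, and Q0010 had the highest value of the well counted members with 5.53 ± 1.09. Q0010 had 38.5, 43.1, 59.8 and 50.3 normalized counts with 4sU, against 0, 0, 6.86 and 1.32 without. Its 4 values with 4sU all lie above its 4 values without. The call of Q0045 was lost when any 1 of 4 of the 8 libraries was left out, each a 60 min library, with values of 1.65 to 2.08. That of Q0250 was lost without either 60 min library without 4sU, at 2.38 and 2.33, and that of Q0275 without replicate 1 of these, at 2.58.

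When the labeled library without 4sU of 20 min, replicate 1, was left out, 20 of 20 members were higher with 4sU, against 99.9% of all genes, with Q0158 at 2.75, Q0020 at 3.53, Q0045 at 3.77, Q0275 at 4.78, Q0130 at 4.68, Q0250 at 4.997 and Q0010 at 6.43. Q0158 had the lowest of these values. When replicate 1 of 60 min without 4sU was left out 10 were, against 98.3% of all genes. The 60 min libraries alone gave 20 of 20, against 99.4% of all genes, and the 20 min libraries alone 7, against 95.8%. As a share of the library the direction was the other: with total counts 0 members were higher and 6 lower with 4sU. Of all genes 31.6% were higher and 1.12% lower, and the medians were -0.52 for members and 0.99 for all genes. With TMM factors 0 members were higher and 5 lower, against 1.42% and 3.25% of all genes, with medians of -1.72 and -0.03. On counts per S. pombe reads, 22 of 22 transfer RNA identifiers with the letter Q were higher with 4sU, as were 98.8% of all genes.

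**Figure D3:**
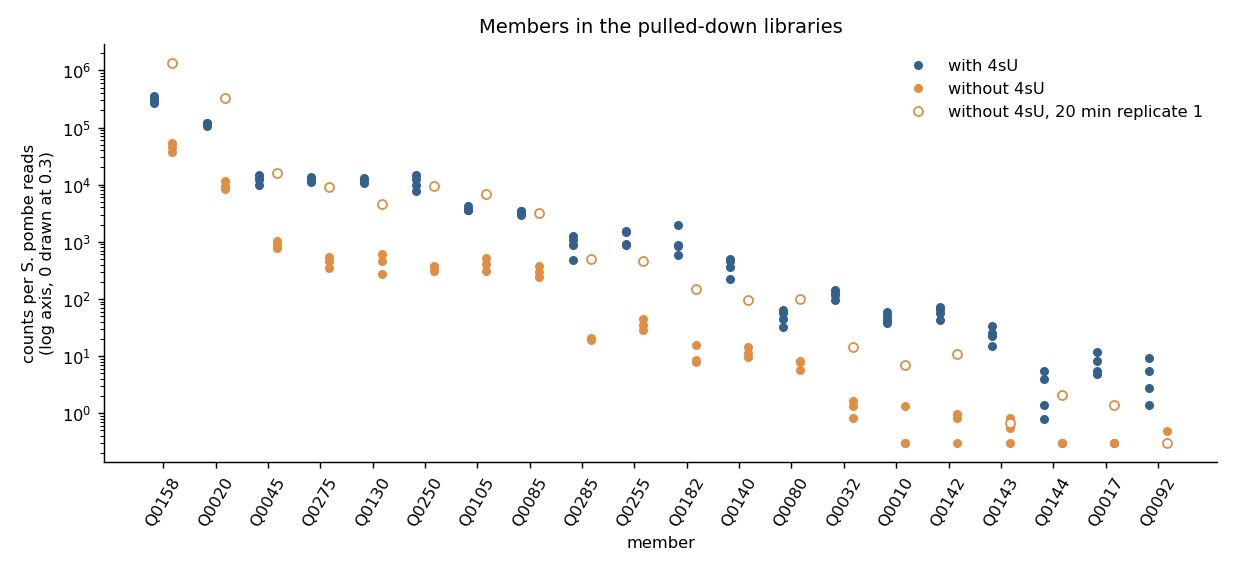
Counts per S. pombe reads on a log axis for the 20 members in the 4 labeled libraries with 4sU (left of each pair) and the 4 without (right), with the library without 4sU of 20 min, replicate 1, as an open circle and values of 0 drawn at 0.3. For Q0158 the open circle at 1349800 is above the 4 libraries with 4sU at 269039 to 358496, while the other 3 libraries without 4sU are at 36976 to 53575.

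The mean level without 4sU as a percent of that with 4sU, over the 3 libraries without 4sU other than 20 min replicate 1, was 14.6% for Q0158, 14.6% for Q0080, 11.0% for Q0105, 9.05% for Q0085, 8.59% for Q0020 and 7.15% for Q0045. These are also the 6 members with the lowest log2 fold changes of labeled against total RNA, and both measures use the labeled libraries with 4sU. The lowest of the well counted members were Q0182 with 0.984% and Q0010 with 0.914%, and Q0144, with few counts, was at 0 in these 3 libraries. The median was 3.08% over the 20 members and 1.32% over all 6069 genes, and 28 genes exceeded Q0158. With all 4 libraries without 4sU the value of Q0158 was 119% and the medians were 13.9% and 2.46%. The part of this carry-over in the labeled values with 4sU was not tested. The interaction given below compares shares of the library, so it does not measure that part.

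Labeled RNA without 4sU was set against total RNA without 4sU in the same way. Of the 20 members 0 were higher and 2 lower, against 12.2% and 0.577% of all genes, and the medians were -0.49 for members and 0.54 for all genes (edgeR quasi-likelihood test, Benjamini-Hochberg, share of the library, 4 libraries each). Q0045 had 3089, 3474, 4868 and 3303 CPM in labeled RNA without 4sU, against 7644, 9112, 7971 and 8978 in total RNA without 4sU (60 min, then 20 min). Its sets do not overlap, and its log2 fold change was -1.20 ± 0.26 (edgeR adjusted p = 0.0431). Q0275 (-1.12) was the other lower member.

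Q0158 had 163020, 165598, 414144 and 170441 CPM in labeled RNA without 4sU, against 262788, 299292, 296100 and 310549 in total RNA without 4sU. In 3 of 4 pairs the labeled value was the lower one, in the pair of 20 min, replicate 1, it was the higher one, and the log2 fold change was -0.41 ± 0.41 (edgeR adjusted p = 0.496). Without that labeled library 9 members were lower, against 52.0% higher and 8.19% lower among all genes, with Q0158 at -0.80 (edgeR adjusted p = 0.00821), Q0020 at -1.32, Q0045 at -1.36, Q0275 at -1.32, Q0130 at -0.79, Q0250 at -1.13 and Q0285 at -1.84. Without any other single library, and with the flask as a block, 0 members and 0 of all genes were called. Q0285 (-1.49) was the lowest of the well counted members and Q0080 (0.37) the highest, and neither passed the threshold. Without the total library without 4sU of 20 min, replicate 1, Q0080 was at -0.10, and without the labeled one of that flask at 0.27.

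The difference between the labeled-to-total ratio with 4sU and that without was tested as an interaction over 16 libraries. It was higher for 1 member and lower for 7, against 28.1% and 0.873% of all genes (edgeR quasi-likelihood test, Benjamini-Hochberg). The medians were -0.47 for members and 0.89 for all genes, with 18 of 20 members below the all-gene median.

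Q0080 was the lowest of the members with -3.23 ± 0.79 (edgeR adjusted p = 0.00849). Q0080 had 6.51, 2.58, 2.89 and 5.14 CPM in labeled RNA with 4sU, against 28.9, 27.0, 32.0 and 35.6 in total RNA with 4sU (60 min, then 20 min). Without 4sU it had 23.7, 26.1, 31.1 and 30.6 in labeled RNA, against 24.5, 28.8, 1.60 and 33.3 in total RNA, where the value of 1.60 rests on 7 counts. Only the first of these pairs of sets is apart.

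Q0158 followed with -3.05 ± 0.47 (edgeR adjusted p = 0.00223), then Q0105 (-2.36), Q0020 (-2.34), Q0085 (-2.09), Q0045 (-1.85) and Q0275 (-0.81). Q0130 (-0.58) and Q0250 (-0.76) did not pass. Q0182 was the higher one with 1.55 ± 0.54 (edgeR adjusted p = 0.0415). Q0182 had 228, 68.1, 38.0 and 69.3 CPM in labeled RNA with 4sU, against 101, 58.3, 43.4 and 36.0 in total RNA with 4sU, and 47.4, 38.2, 45.0 and 28.8 in labeled RNA without 4sU, against 86.2, 78.1, 48.6 and 81.3 in total RNA without 4sU. In labeled and in total RNA with 4sU its 60 min replicate 1 value is the highest. The call of Q0182 was lost when any 1 of 10 of the 16 libraries was left out, and its value without the labeled 60 min replicate 1 library with 4sU was 0.96. The call of Q0275 was lost for 11 of the 16, with values of -0.93 to -0.58 over all 16, while the calls of Q0080, Q0158, Q0020 and Q0045 held for each of the 16. Without the labeled library without 4sU of 20 min, replicate 1, 1 member was higher and 7 lower, against 35.2% and 2.90% of all genes, with Q0080 at -3.19, Q0158 at -2.64, Q0020 at -1.84, Q0045 at -1.71, Q0275 at -0.58, Q0130 at -0.60, Q0250 at -0.36 and Q0182 at 1.81.

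With TMM factors, under which the all-gene median was -0.05, the interaction was higher for 0 members and lower for 5. Of all genes 0.0824% were higher and 1.30% lower. With library totals taken without the members the interaction was higher for 0 and lower for 6, against 6.85% and 1.04% of all genes. The all-gene median was 0.49, and Q0182 (1.01, edgeR adjusted p = 0.286) and Q0275 (-1.33, edgeR adjusted p = 0.0576) were not called. With S. pombe totals the interaction was higher for 14 members and lower for 0, against 98.2% and 0% of all genes. Q0158 was at 0.25 (edgeR adjusted p = 0.842), and the medians were 3.27 for members and 5.25 for all genes. Labeled S. pombe cells were added to flasks with and without 4sU, so their pull-down enters both ratios. The lower calls above are thus of shares of the library, not of counts per S. pombe reads. The members' median lay below the all-gene median under each of these scalings.

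**Figure D4:**
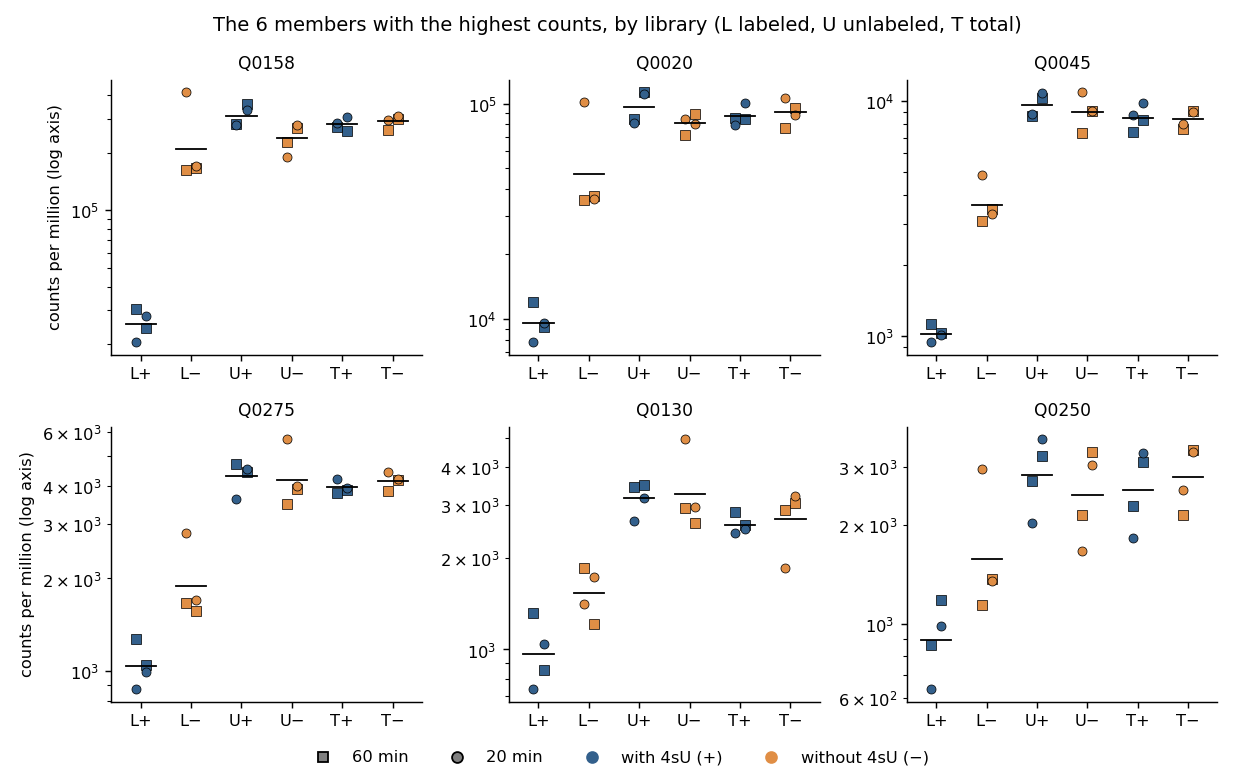
CPM on a log axis for the 6 members with the highest mean count in each library, with L for labeled, U for unlabeled and T for total, plus and minus for 4sU, squares for 60 min, circles for 20 min and a line at the geometric mean of 4 libraries. For Q0158 the 4 values of labeled RNA with 4sU lie between 20511 and 30676 and the 4 of total RNA with 4sU between 260228 and 308989.

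Whether the 6 min of 4sU changed the members in total RNA was tested on counts per S. pombe reads. Of the 20 members 0 were higher and 0 lower with 4sU, against 3.49% and 1.2% of all genes (edgeR quasi-likelihood test, Benjamini-Hochberg), 1 had an unadjusted p under 0.05, and DESeq2 called 0. The medians were 0.09 for members and 0.22 for all genes. Q0158 had 884992, 876691, 1516250 and 1153070 normalized counts with 4sU, against 919143, 956110, 1399770 and 945299 without (60 min, then 20 min). The sets overlap, and the log2 fold change of 0.05 ± 0.27 had a 95% interval of -0.48 to 0.57 (edgeR adjusted p = 0.952).

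Q0080 was the highest of the well counted members with 0.71 ± 0.27 (edgeR adjusted p = 0.115) and Q0182 the lowest with -0.23 ± 0.26. Q0080 had 93.3, 91.1, 169 and 133 normalized counts with 4sU, against 85.5, 92.1, 7.55 and 101 without. The 20 min replicate 1 library without 4sU is far below the rest, and without it the log2 fold change of Q0080 was 0.26 (edgeR adjusted p = 0.661). With the replicate number as a block it was 0.78 and the only member called (edgeR adjusted p = 0.0368), and without replicate 2 of 20 min without 4sU it was 1.05 (edgeR adjusted p = 0.0104).

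The time in galactose was compared on counts per S. pombe reads within each fraction, 60 min against 20 min, with 2 libraries at each time. Between times, in RNA of whole cultures, the number of mitochondrial genomes and the RNA from each cannot be told apart. In labeled RNA with 4sU 0 of 20 members were higher and 0 lower, against 0.0989% and 1.25% of all genes (edgeR quasi-likelihood test, Benjamini-Hochberg), and 1 member had an unadjusted p under 0.05, while DESeq2 called 0 and had 0 under that limit. The medians were 0.03 for members and -0.43 for all genes, and 19 of 20 members lay above the all-gene median. Q0158 had 269039 and 302373 normalized counts at 60 min, against 315887 and 358496 at 20 min, and a log2 fold change of -0.24 ± 0.43 with a 95% interval of -1.09 to 0.61 (edgeR adjusted p = 0.759).

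Q0182 was the highest of the well counted members with 0.96 ± 0.48 (edgeR adjusted p = 0.706) and Q0010 the lowest with -0.44 ± 0.60. Q0182 had 2000 and 845 normalized counts at 60 min, against 586 and 880 at 20 min, so that 1 library carries the difference and the sets overlap. Q0020 (-0.14), Q0045 (-0.27), Q0275 (-0.11), Q0130 (-0.15) and Q0250 (-0.01) were below 0, and above 0 with TMM factors or total counts, which set the all-gene median to 0.03 and -0.02. All 22 tested transfer RNA identifiers with the letter Q had values above 0, with a median of 0.92, and 0 were called.

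In unlabeled RNA with 4sU 0 members were higher and 0 lower, against 0.0494% and 30.5% of all genes (edgeR quasi-likelihood test, Benjamini-Hochberg). No member had an unadjusted p under 0.05 and DESeq2 called 0. The medians were -0.31 for members and -1.16 for all genes, with 19 of 20 members above the all-gene median, among them Q0017 and Q0144, which had no count there. Q0158 had 472436 and 844759 normalized counts at 60 min, against 639026 and 1230400 at 20 min, and a log2 fold change of -0.51 ± 0.43. The sets overlap, and at both times replicate 2 was the higher one.

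In the same comparison the values of Q0182 (0.45) and Q0010 (-0.70) were the highest and lowest of the well counted members. Without replicate 1 of 20 min, 1 member was higher and 5 lower, among them Q0250 (-1.13) and Q0045 (-1.04), where 53.1% of all genes were lower. The share of all genes that was lower rested on single libraries, with 1.63% without replicate 1 of 60 min, 3.46% without replicate 2 of 20 min and 1.04% in the 4 unlabeled libraries fitted alone, and 0 members were called in each of these. With TMM factors, which set the all-gene median to -0.08, the members' median was 0.64 and Q0275 (0.68) was called higher, as were 3.56% of all genes.

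In total RNA with 4sU 0 members were higher and 0 lower at 60 min than at 20 min, against 0.181% and 1.04% of all genes, and in total RNA without 4sU 0 and 0, against 0.824% and 1.65% (edgeR quasi-likelihood test, Benjamini-Hochberg). No member had an unadjusted p under 0.05 in either, and DESeq2 called 0 in both. The medians with 4sU were -0.46 for members and -0.21 for all genes, and without 4sU -0.23 and 0.05. Q0158 had 884992 and 876691 normalized counts at 60 min, against 1516250 and 1153070 at 20 min, with 4sU, where the sets do not overlap. Without 4sU it had 919143 and 956110 at 60 min, against 1399770 and 945299 at 20 min, where they do.

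The log2 fold change of Q0158 in total RNA was -0.60 ± 0.43 with 4sU (edgeR adjusted p = 0.850) and -0.32 ± 0.39 without (edgeR adjusted p = 0.831). With 4sU the values of Q0182 (0.53) and Q0010 (-0.84) were the highest and lowest of the well counted members, and without 4sU those of Q0142 (0.83) and Q0020 (-0.42). The 95% interval of Q0158 was -1.45 to 0.25 with 4sU. Without replicate 2 of 20 min, 1 library of that time was left in total RNA without 4sU. The medians were then 0.04 for members and -0.21 for all genes.

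**Figure D5:**
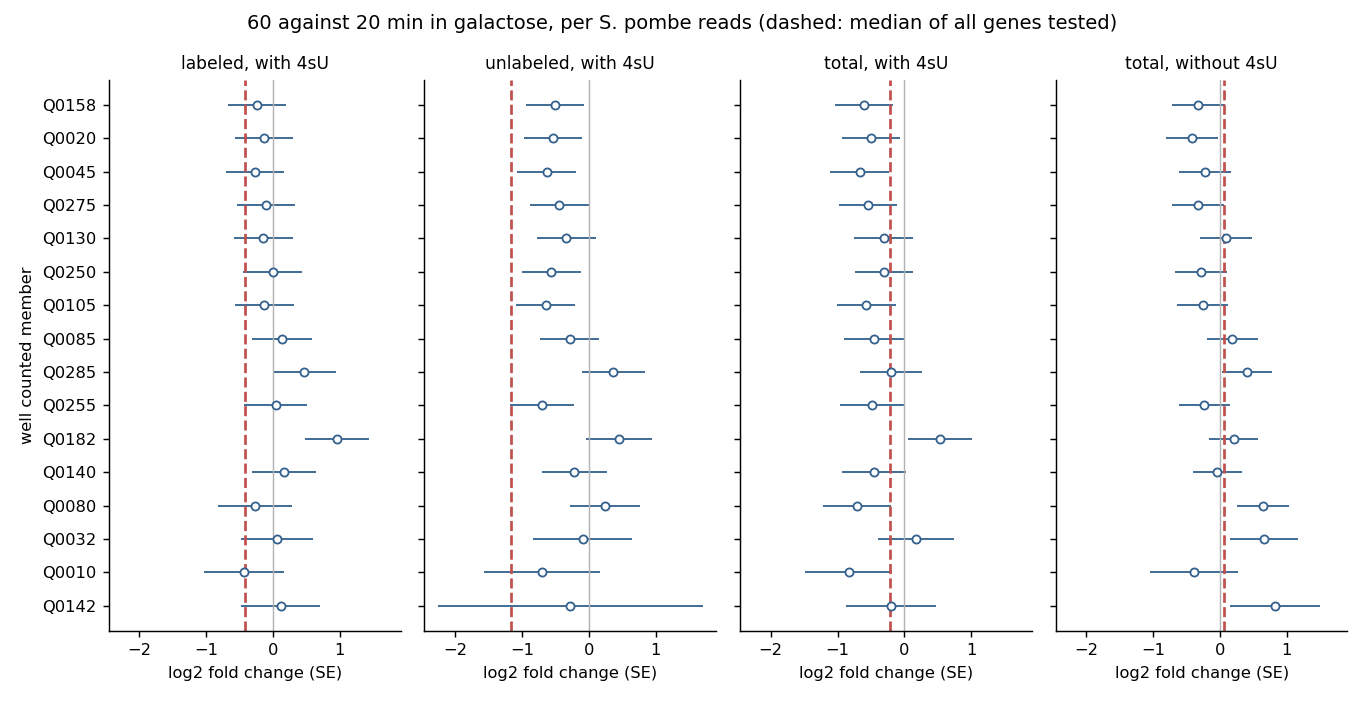
Log2 fold change of 60 against 20 min in galactose per S. pombe reads, with its SE, for the 16 well counted members in labeled, unlabeled and total RNA with 4sU and in total RNA without 4sU, with the all-gene median dashed. No point passed the threshold, and in labeled RNA Q0182 at 0.96 is the farthest from the all-gene median of -0.43.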

How the data were processed

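The authors aligned paired-end reads with HISAT2 2.0.4 to the S. cerevisiae genome (R64 build) and, apart, to that of S. pombe, and counted S. cerevisiae genes with featureCounts in strand-specific mode, multi-mapping reads included. They deposited raw counts per gene and a signal table, the same counts divided by each library's S. pombe reads over 2000000. The S. pombe totals used here are the ratio of both tables.

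As in the study, genes listed at 0 in over 50% of the 24 libraries were removed, which left 6069. Tests on the counts used edgeR 4.0.16 quasi-likelihood fits in R 4.3.3 with Benjamini-Hochberg adjustment over all genes tested and a threshold of 0.05. Library sizes were S. pombe totals within a fraction and S. cerevisiae totals between fractions, with time as a term in the fits that join both times. Time with 4sU was fitted over all 12 libraries with 4sU, which share 1 estimate of the spread (the 4 unlabeled libraries alone called 63 genes, against 1849 lower in that fit), and time without 4sU over the 8 total libraries. DESeq2 1.42.0 was an alternative. Intervals of fold changes are normal 95% intervals from the SE, and can be narrower than limits that match the tests. The p-values set a difference against the spread between these libraries, taken as independent. Per the protocol both times came from the same culture, so the 4 libraries of a set are not 4 independent cultures.

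Replicate numbers mark split cultures, per the protocol, and fractions of a flask share its RNA, so they pair the samples. Over 14 pairs of compared groups the correlation of same-numbered deviations was -0.13 to 0.26, above 0.1 in 11. The fits reported have no block, as in the study.

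Members and lists were chosen with earlier results of these data known. Values are given for the 6 members with the highest mean count and, per comparison, the highest and lowest log2 fold change among well counted members (mean count of at least 10). Other members are named as called, or to list those that passed no threshold. Nuclear genes of mitochondrial expression and respiration were not analysed here, since the tables used pair no names with the identifiers. Shares without RDN, ETS and ITS rows, and shares without the members in comparisons other than labeled against total RNA with 4sU, were added after the data were seen.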

Additional observations from a re-analysis of the deposited data

Results flagged for a closer look

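With 4 libraries in each set of 1 fraction and 4sU setting, 78 sets of 13 measures were searched for 1 library far from the other 3. Of these sets 12 stood out. The limit used flags about 1 in 20 independent sets. These measures overlap and each set joins both times, so no excess over chance can be read from the 12. The labeled library without 4sU of 20 min, replicate 1, gave 6 of the 12. Its summed members took 53.2% of counts, against 21.0% to 21.7% in the others, and came to 1733430 normalized counts, against 47567 to 68862. In the same library Q0158 had 414144 CPM, Q0020 102106, Q0250 2958 and Q0275 2820.

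The other 6 came from different libraries. In total RNA without 4sU the summed members took 36.1% of counts in the 60 min replicate 1 library, against 41.9% to 42.4%, and came to 1996680 normalized counts in the 20 min replicate 1 library, against 1262550 to 1338320. Q0182 had 228 CPM in labeled RNA with 4sU at 60 min, replicate 1, against 38.0 to 69.3. Q0130 had 4946 in unlabeled RNA without 4sU at 20 min, replicate 1, against 2618 to 2965. Q0010 had 1.45 in total RNA with 4sU at 60 min, replicate 2, and Q0142 0.846 in labeled RNA without 4sU at 60 min, replicate 1, both from few counts.

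The labeled-to-total ratio differed between cells with and without 4sU for 8 of 20 members and for 29.0% of all genes by the interaction test (edgeR, Benjamini-Hochberg). The log2 differences were -3.23 for Q0080, -3.05 for Q0158, -2.36 for Q0105, -2.34 for Q0020, -2.09 for Q0085, -1.85 for Q0045, -0.81 for Q0275 and 1.55 for Q0182, on the share of the library.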

How the results depend on the processing

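Counts of members called were within 1.5 times the reported count in 121 of 145 alternatives. These counts sum higher and lower calls. An alternative with 0 calls where 0 were reported, as for time and for 4sU in total RNA, is among those within, so the figure is no measure of robustness. With TMM factors there was 1 call for time in the unlabeled fraction, against 7.73% of all genes. They gave 5 members lower with 4sU in labeled RNA, against 3.25% of all genes. They also gave 13 calls for unlabeled against total RNA and 5 for the interaction, against 59.8% and 1.38% of all genes. Total counts gave 6 for 4sU in labeled RNA (all lower, against 1.12% of all genes), and the 20 min libraries alone 7 (higher, against 95.8%). S. pombe totals gave 8 for unlabeled against total RNA, 13 for labeled against total RNA without 4sU and 14 for the interaction. The shares of all genes called there were 84.0%, 75.9% and 98.2%. DESeq2 gave 5 for labeled against total RNA without 4sU, against 29.3% of all genes. With the replicate number as a block 1 member was called for 4sU in total RNA, against 7.51% of all genes. With the flask as a block 0 members and 0 of all genes were called for labeled against total RNA without 4sU. The same block gave 6 rather than 3 members higher in labeled than total RNA with 4sU, against 88.5% of all genes. No other call on a count of members moved by over 1.5 times. For labeled against total RNA with 4sU the sum of 15 calls held with S. pombe totals, but as 9 higher and 6 lower.

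Leaving out 1 library at a time gave 10 to 20 member calls for 4sU in labeled RNA, against 98.3% to 99.9% of all genes. For 4sU in total RNA it gave 0 to 1, against 1.65% to 5.06%. For labeled against total RNA without 4sU it gave 0 to 9, against 0% to 60.2%. For time such a fit leaves 1 library at 1 time, so medians alone are given here. In unlabeled RNA they were -0.81 to 0.03 for members and -1.54 to -0.55 for all genes. In total RNA without 4sU they were -0.28 to 0.04 and -0.21 to 0.38.

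Of 1102 values of named members under alternatives, 97 changed sign, 23 of them with a call under one of the settings. Q0275 was at 0.68 for time in unlabeled RNA with TMM factors. For 4sU in labeled RNA, TMM factors gave Q0010 -0.17, Q0045 -3.09, Q0130 -1.82, Q0158 -4.40, Q0250 -2.16 and Q0275 -2.15, and total counts Q0020 -2.39, Q0045 -1.84, Q0130 -0.66, Q0158 -3.08, Q0250 -0.85 and Q0275 -0.88. For labeled against total RNA with 4sU, S. pombe totals gave Q0130 0.23 and Q0250 0.17, and TMM factors Q0142 -0.38. For the interaction, S. pombe totals gave Q0020 0.90, Q0045 1.77, Q0080 0.41, Q0130 3.19, Q0158 0.25, Q0250 2.56 and Q0275 2.70. The other 74 sign changes were of values called under neither setting, 21 of them with TMM factors, 17 with total counts, 7 with S. pombe totals and 27 with 1 library left out. Why the settings differ was not tested, beyond the all-gene medians given with them. Depth limits Q0143, Q0144, Q0017 and Q0092, whose mean count was under 10, and Q0010 and Q0142, each at 0 in 2 libraries.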
